A study of Mus musculus with 12 samples.

Results

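The nuclear-encoded subunits of the mitochondrial respiratory chain were described across 12 libraries of cultured mouse microglia. Members were all listed genes whose symbols begin with Nduf followed by a, b, c, s or v (complex I), are Sdha to Sdhd (complex II), or begin with Uqcr (complex III), Cox4 to Cox8 (complex IV) or Atp5 (complex V), without pseudogenes and Ndufaf assembly factors. This gave 79 of 14541 listed genes, with 36 in complex I, 4 in complex II, 8 in complex III, 14 in complex IV and 17 in complex V. The grouping follows the names: Ndufa4, now known as a subunit of complex IV, stands under complex I, and Atp5s and Atp5sl stand under complex V although their products are not subunits of ATP synthase itself. Subunits encoded by the mitochondrial genome, and Ndufa4l2, Cox7a1 and Cox8b, were not analysed here.

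The respiratory chain lies in the inner mitochondrial membrane. Complex I (NADH dehydrogenase) and complex II (succinate dehydrogenase) pass electrons to ubiquinone, complex III passes them on to cytochrome c, complex IV hands them to oxygen, and complex V (ATP synthase) makes ATP with the proton gradient that complexes I, III and IV build. Macrophages that meet lipopolysaccharide are known for turning away from oxidative phosphorylation towards glycolysis, which makes these genes of interest in microglia, the macrophages of the brain.

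The cells came from the forebrains of wild-type mouse pups at postnatal days 7 to 9, were caught with magnetic beads against CD11b, and were plated at 40000 to 80000 per well. They were exposed for 6 h to recombinant Hevin at 500 nM (a secreted protein that astrocytes make), to lipopolysaccharide at 50 ng/mL (LPS, from the bacterial outer membrane, sensed by Toll-like receptor 4), or to an equal volume of Media alone. Each group had 4 libraries, numbered 1 to 4, of poly(A) RNA sequenced as 100 bp read pairs, and the libraries of 1 number share a further group label. Whether each library came from its own animals or its own culture is not given, and the p-values accordingly cover no more than the variation among these libraries.

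Levels are FPKM, fragments scaled to gene length and library size, which can be compared between genes. Fold changes are given as log2 ± SE on the log2(FPKM + 1) scale, where the changes of low genes come out too small, and a gene is said to have changed where the p-value of the limma fit over all 11242 genes tested, adjusted by Benjamini-Hochberg, was under 0.05. The fit holds the replicate number as a block. Depth, as whole reads recovered for the listed genes, was 18343996 to 27361665 per library. The scaling factors behind the FPKM values were 1.02 to 1.16 in Hevin, 0.804 to 0.897 in LPS and 1.02 to 1.11 in Media. Without these factors the median of all genes in LPS against Media moves to -0.29, against -0.02 as deposited, so shifts of the LPS group are read against all genes. All 10 microglia markers were listed, with summed levels of 1432 to 2014 FPKM in Hevin, 723 to 1026 FPKM in LPS and 834 to 1086 FPKM in Media. Neutrophil markers, of which 4 of 5 were listed and Ly6g was not, summed to 1541 FPKM in Hevin, 1613 FPKM in LPS and 1622 FPKM in Media in the libraries of number 2, the highest in each group, and the lowest library of each group was at 33.3, 74.2 and 42.1 FPKM in Hevin, LPS and Media. Astrocyte markers, all 7 listed, summed to 20.8 to 44.2 FPKM in Hevin, 112 to 234 FPKM in LPS and 49.8 to 85.3 FPKM in Media, of which Gja1 alone made up 18.7 to 33.2, 109 to 225 and 47.6 to 74.6 FPKM, while Gfap and Aqp4 did not pass 1.97 FPKM in any library, and border macrophage markers, all 4 listed, to 521 to 719 FPKM in Hevin, 628 to 785 FPKM in LPS and 749 to 877 FPKM in Media. In such bulk samples fewer cells of a type and less RNA per cell cannot be told apart.

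The subunits ranged in mean level from 0.636 to 279 FPKM. Their median level over the 12 libraries was 17.02 FPKM, against 9.72 FPKM over all genes tested. By complex the median was 13.4 FPKM for complex I, 42.6 FPKM for complex II, 26.8 FPKM for complex III, 7.69 FPKM for complex IV and 9.37 FPKM for complex V. The medians of complexes IV and V thus lay below that of all genes tested. The highest were the catalytic ATP synthase subunits Atp5b (beta, mean 279 FPKM) and Atp5a1 (alpha, 156 FPKM) and the complex IV subunit Cox4i1 (231 FPKM). Complex I was led by the accessory subunit Ndufa2 at 54.4 FPKM, complex II by the flavoprotein Sdha at 57.7 FPKM and complex III by the core protein Uqcrc1 at 62.4 FPKM. The lowest were Ndufa11 in complex I at 1.47 FPKM, Sdhc in complex II at 28.5 FPKM, Uqcr11 in complex III at 3.21 FPKM, Cox4i2 in complex IV at 0.636 FPKM and Atp5s in complex V at 0.82 FPKM.

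Where complex IV has alternative isoforms, the widely expressed one was far higher in each group. Cox4i1 averaged 227 ± 12.3 FPKM in Hevin, 240.3 ± 12.3 FPKM in LPS and 226 ± 13.8 FPKM in Media (SD, n = 4 each), and Cox4i2, the lung isoform, averaged 0.555 ± 0.431 FPKM in Hevin, 0.732 ± 0.395 FPKM in LPS and 0.621 ± 0.237 FPKM in Media. Cox6a1 averaged 83 ± 6.88 FPKM in Hevin, 87.2 ± 19.8 FPKM in LPS and 98.8 ± 19.4 FPKM in Media, and Cox6a2, the heart and muscle isoform, averaged 2.24 ± 0.909 FPKM in Hevin, 1.51 ± 1.6 FPKM in LPS and 2.53 ± 1.23 FPKM in Media. In neither pair did the minor isoform come near the major one in any group. Cox6b1 averaged 56.7 ± 8.54 FPKM in Hevin, 63.3 ± 9.4 FPKM in LPS and 57.5 ± 9.91 FPKM in Media, and Cox6b2, the testis isoform, averaged 1.52 ± 1.02 FPKM in Hevin, 1.92 ± 1.07 FPKM in LPS and 1.79 ± 0.362 FPKM in Media. Atp5g1, Atp5g2 and Atp5g3 encode the same mature c subunit of the ATP synthase ring. Of these, Atp5g3 averaged 109 ± 8.54 FPKM in Hevin, 116 ± 12.7 FPKM in LPS and 114 ± 7.33 FPKM in Media, and Atp5g1 averaged 7.42 ± 0.704 FPKM in Hevin, 6.17 ± 0.671 FPKM in LPS and 8.22 ± 1.96 FPKM in Media. Atp5g2 averaged 5.21 ± 0.411 FPKM in Hevin, 4.83 ± 1.09 FPKM in LPS and 5.22 ± 0.998 FPKM in Media. Atp5g1 has 4 and Atp5g2 has 2 near-identical pseudogenes, as defined below, while Atp5g3 has 0, so the order of the 3 genes is uncertain.

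Many small respiratory chain genes have processed pseudogenes, copies of their transcript elsewhere in the genome that reads may match equally well, and how the authors counted such reads is not given in the sources used here. A pseudogene at least 90% identical over at least 80% of the coding sequence was found for 31 of the 79 members. These 31 had a median level of 6.55 FPKM, against 23.9 FPKM for the other 48, and their median SD within groups was 0.285 on the log2(FPKM + 1) scale, against 0.170. Spearman's rho between the number of such pseudogenes and the mean level was -0.44 over the 79 genes, a description only, since all points share the same libraries. Cox7c, a small subunit of complex IV, has 4 such pseudogenes. Cox7c had 6.66, 10.2, 8.5 and 5.92 FPKM in Hevin, 8.91, 12.6, 12.9 and 7.68 FPKM in LPS and 8.58, 7.58, 8.43 and 8.12 FPKM in Media, in the order of numbers 1 to 4, the order used throughout. Its pseudogene Gm12338 had 53.6, 69.7, 71.5 and 74 FPKM in Hevin, 78.5, 80.2, 97.1 and 109.9 FPKM in LPS and 60.8, 75.3, 87.1 and 79.9 FPKM in Media, so the copy was listed far above the gene in every library. Another listed copy, Gm10012, averaged 5.76 ± 3.1 FPKM in Hevin, 5.59 ± 3.06 FPKM in LPS and 4.94 ± 2.87 FPKM in Media (SD, n = 4 each). These means lie below those of Cox7c, at 7.81, 10.5 and 8.18 FPKM, so the copies differed in level. The levels of the 31 members with such copies are uncertain, since the counting of reads that match both is not given. A further uncertainty is that 29 members overlap exons of another gene, 5 on the same strand and 26 on the opposite one, and the use of strand in counting is not given in the sources used here.

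**Figure D1:**
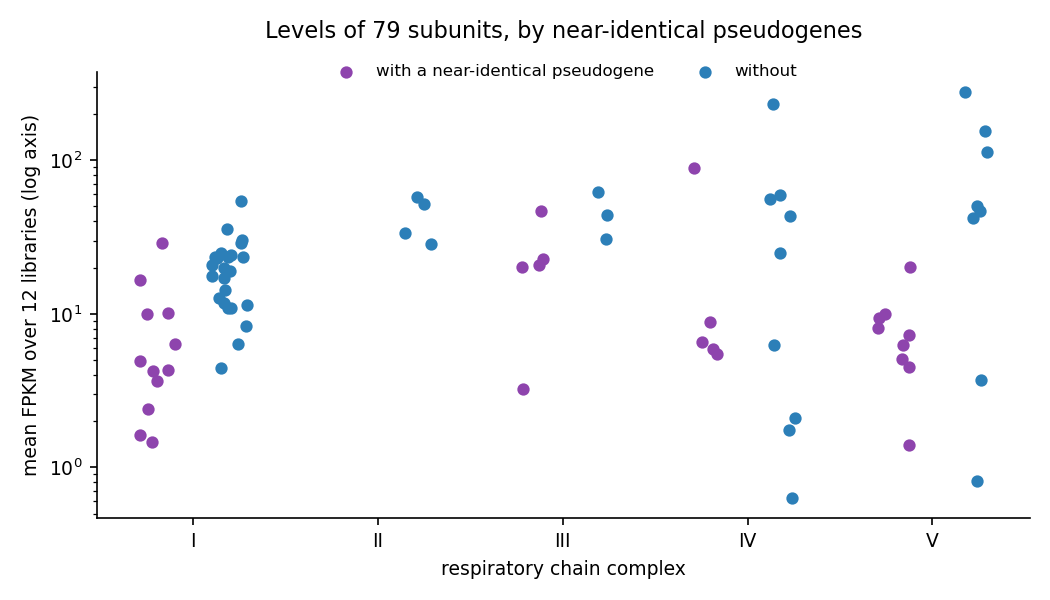
Mean FPKM over 12 libraries (log axis) of each of the 79 subunits, by complex, with the 31 that have a near-identical pseudogene drawn left of the 48 that have none. The median is 6.55 FPKM with such a pseudogene and 23.9 FPKM without, and the highest points are Atp5b at 279 FPKM and Cox4i1 at 231 FPKM.

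The promoters were searched for 3 motifs tied in the textbook account to respiratory genes: that of NRF1 (GCGC and TGCGC with 1 base between), the core of the ETS factors such as GABP (CCGGAAG) and that of YY1 (AANATGGCG), each on both strands. The windows ran over 300 bases, with 250 before and 50 after the start in RefSeq (GRCm38.p6), and 63 of the 79 members matched by symbol. The NRF1 letters stood in 16 of 63 member promoters (25.4%), against 5.19% of 27025 genes with a window and 10.6% of the 10912 listed ones. The ETS letters stood in 16 (25.4%), against 9.93% and 18.4%, and the YY1 letters in 10 (15.9%), against 2.76% and 5.46%. Of 13 matched complex I genes called lower in LPS against Media, 1 held the NRF1, 2 the ETS and 2 the YY1 letters. Of the 19 other matched complex I genes, 5 held the NRF1, 2 the ETS and 5 the YY1 letters. These counts are descriptions of letters, not of binding.

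Promoters of 3 complex I genes that were lower in LPS (Ndufs8, Ndufv2, Ndufv3) and of 2 genes that were not called there (Ndufa11, Sdhd) are printed to show stretches with and without a match. Each runs 5′ to 3′ up to the base before the RefSeq start, over 250 bases or as far as no exon reaches. Capitals mark a motif match, which is NRF1 in Ndufa11, beginning 60 bases before the start, and ETS in Sdhd, beginning 46 bases before the start. The other 3 hold none of the 3 motifs in these stretches. The printed genes were picked as examples, so they show no split of motifs by response to LPS. Each of the 3 motifs was found both among complex I genes called lower and among those not called, as counted above. Ndufa11 was not called, but it was lower in LPS than in Media within all 4 numbers (log2 difference -0.27, adjusted p = 0.0625).
Ndufs8 (chr19:3912775-3913024, - strand): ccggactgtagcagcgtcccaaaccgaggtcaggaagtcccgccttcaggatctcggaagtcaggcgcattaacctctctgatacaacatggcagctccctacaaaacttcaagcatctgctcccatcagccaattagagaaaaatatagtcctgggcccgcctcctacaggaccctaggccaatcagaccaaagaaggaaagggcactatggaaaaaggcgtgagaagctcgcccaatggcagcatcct
Ndufv2 (chr17:66101560-66101809, - strand): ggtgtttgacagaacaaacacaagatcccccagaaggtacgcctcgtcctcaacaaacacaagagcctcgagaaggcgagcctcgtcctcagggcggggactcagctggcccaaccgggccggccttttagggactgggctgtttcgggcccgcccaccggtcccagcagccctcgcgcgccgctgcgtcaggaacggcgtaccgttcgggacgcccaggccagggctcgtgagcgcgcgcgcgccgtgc
Ndufv3 (chr17:31519981-31520114, + strand): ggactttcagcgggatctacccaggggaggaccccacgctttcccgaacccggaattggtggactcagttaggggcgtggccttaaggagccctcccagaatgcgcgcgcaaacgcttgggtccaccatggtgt
Ndufa11 (chr17:56717686-56717761, + strand): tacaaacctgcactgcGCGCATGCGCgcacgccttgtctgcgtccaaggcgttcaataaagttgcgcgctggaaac
Sdhd (chr9:50603850-50603909, - strand): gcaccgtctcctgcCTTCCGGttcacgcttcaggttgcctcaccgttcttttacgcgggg

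Hevin against Media asked what the astrocyte protein does to microglia. Of 78 members tested 1 was higher and 1 lower, while 10.8% of all genes tested were higher and 10.6% lower. Both were accessory subunits of complex I. The members' median log2 fold change was 0.01, against 0.0002 for all genes, and their median absolute change was 0.0866, against 0.153. At an unadjusted p under 0.05 stood 5 of the 78, and without the block 0 were called higher and 0 lower, against 4.27% of all genes higher and 3.1% lower. Without Media 4, and without number 4, 2 members were higher, against 8.27% and 7.49% of all genes.

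Ndufa8, a subunit of the intermembrane space side of complex I (chr2:36036326-36049406, - strand), had 23.1, 26.6, 30.9 and 29.5 FPKM in Hevin, against 19.8, 17, 24.6 and 27.3 FPKM in Media. The groups overlap, and Hevin was higher within all 4 numbers. Ndufa8 had a log2 fold change of 0.31 ± 0.08 (adjusted p = 0.0202). The Ndufa8 call ended without Hevin 2 or 3, Media 1, 2 or 3, or number 1, 2 or 3 (adjusted p 0.0517 to 0.107) and without the block (adjusted p = 0.244). Ndufb11, an accessory subunit of the membrane arm (chrX:20615326-20617619, - strand), had 6.88, 9.44, 9.1 and 11.3 FPKM in Hevin, against 9.52, 15.6, 11.5 and 11.2 FPKM in Media. The groups overlap, and the log2 fold change was -0.35 ± 0.10 (adjusted p = 0.0365). The Ndufb11 call ended without Hevin 1, 2 or 3, Media 1, 2 or 3, or number 1, 2 or 3 (adjusted p 0.0685 to 0.162), without the block (adjusted p = 0.303), without scaling factors (adjusted p = 0.0545) and with voom on recovered reads (adjusted p = 0.0955). Ndufb11 has 1 near-identical pseudogene and overlaps Rbm10 on the opposite strand.

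None of the other complexes had a called member in Hevin against Media. Among complexes II to V the groups did not overlap for 1 gene that was higher, Sdha, and for 1 that was lower, Cox7a2, against 9.05% and 7.55% of all genes. Sdha had 61, 60.7, 59.7 and 62.4 FPKM in Hevin, against 56.8, 51.1, 56.7 and 56.5 FPKM in Media (log2 fold change 0.14 ± 0.07, adjusted p = 0.182). Cox7a2, a small subunit of complex IV, had 22.8, 21.9, 22.8 and 21.6 FPKM in Hevin, against 22.9, 25.2, 25.7 and 25.3 FPKM in Media (log2 fold change -0.14 ± 0.09, adjusted p = 0.273). Neither passed the test. Median log2 fold changes were 0.04 for complex I, 0.11 for complex II, -0.08 for complex III, -0.02 for complex IV and 0.01 for complex V.

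**Figure D2:**
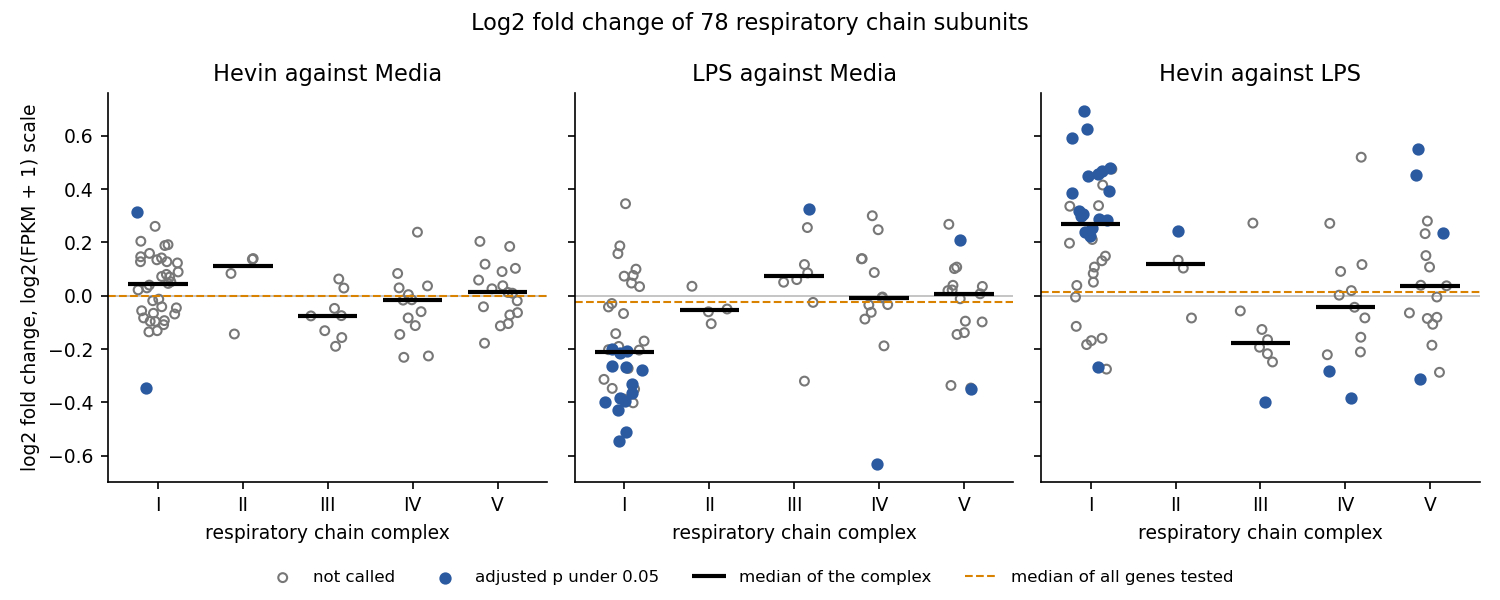
Log2 fold change on the log2(FPKM + 1) scale of the 78 subunits tested, by complex, in the 3 comparisons; filled points have an adjusted p under 0.05, black bars are the median of a complex and the dashed line is the median of all genes tested. Complex I has its median at -0.21 in LPS against Media and at 0.27 in Hevin against LPS, while in Hevin against Media 2 of 36 points are filled; under other scalings several high genes of complexes II to V change sign in LPS.

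LPS against Media asked what a strong inflammatory stimulus does, and 14 of the 16 lower calls were in complex I, against 13 of 25 under quantile normalization. Of its 36 subunits, 14 were lower and 0 higher (38.9% lower), while 22.2% of all genes tested were lower and 21.5% higher. Of all 78 members 2 were higher and 16 lower, or 18 in either direction, against 43.7% of all genes. Of the 42 tested members of complexes II to V, 2 were lower and 2 higher, and under other scalings more were lower: 12 lower and 0 higher under quantile normalization (28.6% lower, against 24.3% of all genes), 6 and 1 under upper quartile scaling (14.3%, against 33.4%) and 23 and 0 without scaling factors (54.8%, against 56.3%). Complex I then had 13, 21 and 29 lower (36.1%, 58.3% and 80.6%). The median log2 fold change of complex I was -0.21, against -0.02 over all genes, and the medians of complexes II to V were -0.05, 0.07, -0.01 and 0.01. Of the 36 subunits, 17 were lower in LPS within all 4 numbers, against 28.1% of all genes, and 2 had groups that did not overlap, against 12.3%. The lower summed level of microglia markers and the higher one of astrocyte markers, nearly all Gja1, in LPS, given above, moved with this comparison, and their part in the result was not tested.

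The size of the count depended on the model. Without the block 5 complex I subunits were lower (13.9%), against 12.6% of all genes, and with voom on the recovered reads 7 (19.4%), against 22.4%. Leaving out 1 library gave 9 without Hevin 3, 9 without LPS 2, 8 without LPS 4, 9 without Media 1, 6 without Media 2 and 6 without Media 3, and leaving out numbers 1, 2, 3 or 4 gave 7, 8, 4 and 9. The share of complex I that was lower was under that of all genes in 3 of the 16 fits that left out a library or a number: it was 16.7% against 19.6% without Media 2, 16.7% against 17.3% without Media 3 and 11.1% against 15.0% without number 3. It was above that of all genes in the other 13, among them 19.4% against 17.9% without number 1. Over all 78 members, where 16 were lower, 10 were lower without Hevin 3, 9 without LPS 4, 10 without Media 1, 7 without Media 2 and 8 without Media 3, and 8, 10, 6 and 10 without numbers 1 to 4. Of all genes 20.7%, 18.7%, 18.1%, 19.6% and 17.3% were lower without these libraries in turn. Without numbers 1 to 4 the shares were 17.9%, 20.7%, 15.0% and 16.3%, against 22.2% as reported. Of the members 4 were higher without Media 4 or number 4, 3 without Media 1 and 1 without number 3. The shares of all genes higher in these fits are not given here. The median of complex I less that of all genes was -0.19 as reported and -0.15 with a pseudocount of 5. It was -0.22 without scaling factors and -0.20 under upper quartile scaling. Both settings scale all genes of a library alike, so they can hardly change this difference. It was -0.19 under quantile normalization, -0.20 with voom, and -0.24 to -0.16 over those 16 fits.

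**Figure D3:**
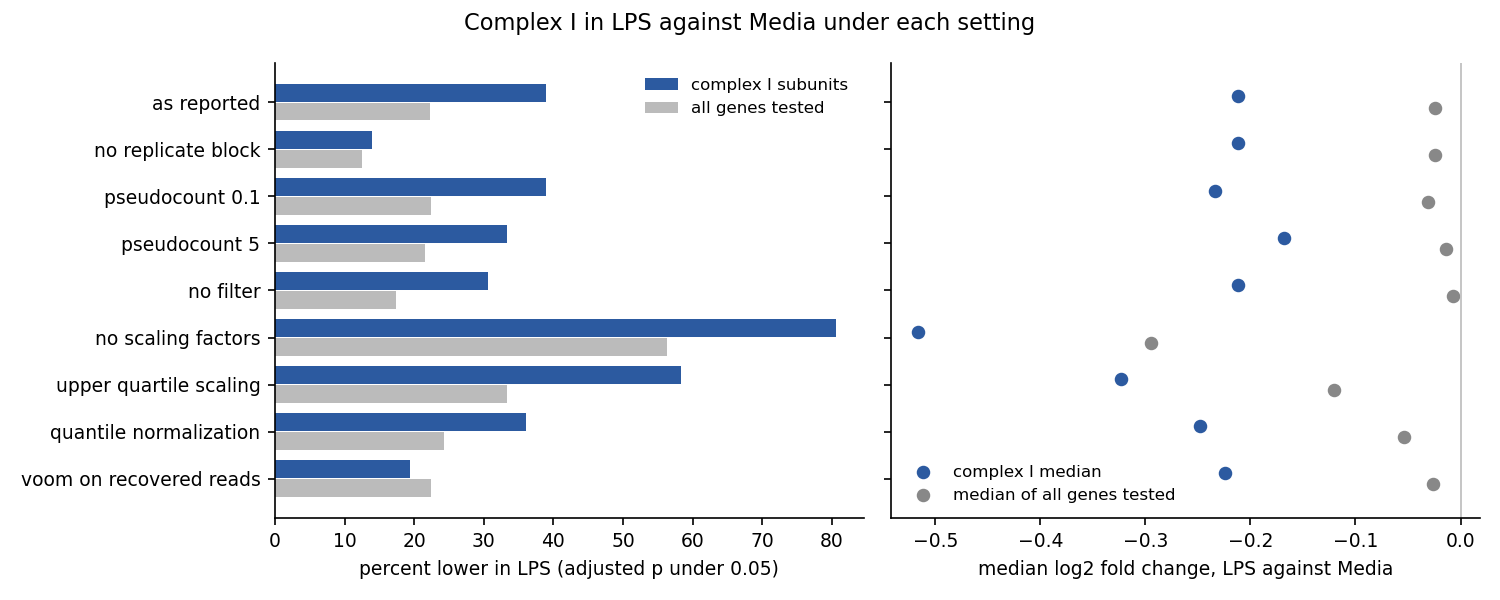
Complex I in LPS against Media under 9 settings: left, the percent of the 36 subunits and of all genes tested that were lower at an adjusted p under 0.05; right, the median log2 fold change of both. The median of complex I lies below that of all genes in each setting, while the percent lower is 13.9% against 12.6% without the block and 19.4% against 22.4% with voom.

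Among the core subunits, which hold the flavin, the chain of iron-sulfur clusters and the site where ubiquinone is reduced, 3 of 7 were lower, against 22.2% of all genes. Ndufs8, which binds iron-sulfur clusters close to ubiquinone (chr19:3908863-3912774, - strand), had 26.1, 26.9, 22.9 and 27.7 FPKM in Hevin, 23.4, 21.4, 20.9 and 17.7 FPKM in LPS and 31, 27.3, 26.1 and 26.2 FPKM in Media. All 4 LPS libraries lie below all 4 Media and 3 of 4 Hevin libraries. Ndufs8 had a log2 fold change in LPS of -0.39 ± 0.08 (adjusted p = 0.00284), and the call stood in all 24 alternatives. Ndufv2, an iron-sulfur subunit of the NADH-oxidising module (chr17:66078638-66101559, - strand), had 13, 12.2, 13.1 and 11.6 FPKM in Hevin, 7.98, 7.49, 10.9 and 9.2 FPKM in LPS and 11.2, 9.58, 12.5 and 12.3 FPKM in Media. LPS 3 lies above Media 2, and LPS was lower within each number. Ndufv2 had a log2 fold change of -0.33 ± 0.09 (adjusted p = 0.0112). The Ndufv2 call ended without number 1 (adjusted p = 0.0625) and without the block (adjusted p = 0.0549).

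Ndufv1, which binds NADH and the flavin, had 16.9, 15.2, 19.6 and 22.8 FPKM in Hevin, 14.5, 13.3, 16 and 16.1 FPKM in LPS and 15.8, 15.2, 18.6 and 20.4 FPKM in Media. LPS and Media overlap, and the log2 fold change was -0.21 ± 0.07 (adjusted p = 0.0292). The Ndufv1 call ended without LPS 3 or 4, Media 1, 2, 3 or 4, or number 1, 2, 3 or 4 (adjusted p 0.0549 to 0.12), without the block (adjusted p = 0.273) and with voom on recovered reads (adjusted p = 0.0564). Ndufs7, an iron-sulfur subunit next to Ndufs8 in the chain of clusters, had 12.3, 13.6, 14.8 and 20.2 FPKM in Hevin, 10.2, 8.96, 12 and 7.66 FPKM in LPS and 10.8, 12.2, 12.9 and 16 FPKM in Media. Its difference in LPS was -0.39 ± 0.15 and did not pass the test (adjusted p = 0.0603). Ndufs1, the largest core subunit, averaged 17.6 ± 0.947 FPKM in Hevin, 17.7 ± 1.77 FPKM in LPS and 17.2 ± 0.628 FPKM in Media (SD, n = 4 each). Its log2 difference in LPS was 0.03 ± 0.08, did not pass the test (adjusted p = 0.743), and changes sign to -0.28 without scaling factors.

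Among the B and C subunits, accessory proteins that mostly sit in or on the membrane arm, 7 of 12 were lower, against 22.2% of all genes. Ndufb10 (chr17:24722060-24724478, - strand) had 21.1, 27.1, 25 and 26.5 FPKM in Hevin, 19.3, 15.6, 21.4 and 19.2 FPKM in LPS and 21.2, 26.4, 28.4 and 24.7 FPKM in Media. One LPS library, number 3, lies just above the lowest Media library, and the others lie below all of Media. Ndufb10 had a log2 fold change of -0.40 ± 0.10 (adjusted p = 0.00852) and the call stood in all 24 alternatives. Ndufb8 (chr19:44548572-44555440, - strand) had 33.5, 30.6, 28.3 and 33.3 FPKM in Hevin, 25.6, 27, 24.3 and 23.9 FPKM in LPS and 28.7, 29.6, 29.8 and 34 FPKM in Media. LPS and Media do not overlap, and the log2 fold change was -0.27 ± 0.08 (adjusted p = 0.0158). The Ndufb8 call ended without LPS 4, Media 3 or 4, or number 3 or 4 (adjusted p 0.0509 to 0.0965). Ndufb8 shares exons on its own strand with the gene model Gm20538.

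Ndufb11, which was also lower in Hevin, had 6.35, 10.4, 9.39 and 8.3 FPKM in LPS, against 9.52, 15.6, 11.5 and 11.2 FPKM in Media. Ndufb11 had a log2 fold change of -0.43 ± 0.10 (adjusted p = 0.00653). The Ndufb11 call ended without the block (adjusted p = 0.0963). Ndufc1 had 5.39, 4.21, 5.03 and 4.2 FPKM in Hevin, 2.36, 2.41, 4.34 and 4.38 FPKM in LPS and 3.1, 5.73, 6.04 and 5.99 FPKM in Media, with Media 1 near the LPS libraries. Ndufc1 had a log2 fold change of -0.51 ± 0.17 (adjusted p = 0.0348). The Ndufc1 call ended without LPS 1 or 2, Media 2, 3 or 4, or number 2, 3 or 4 (adjusted p 0.0527 to 0.162), without the block (adjusted p = 0.0951), under quantile normalization (adjusted p = 0.0782) and with voom on recovered reads (adjusted p = 0.124).

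The other B and C subunits that passed were Ndufb7 (log2 fold change -0.38 ± 0.14, adjusted p = 0.0427), Ndufc2 (-0.22 ± 0.08, adjusted p = 0.0497) and Ndufb9 (-0.20 ± 0.07, adjusted p = 0.0497). They averaged 24.1 ± 4.29, 12.8 ± 1.27 and 26 ± 4.39 FPKM in LPS, against 31.5 ± 4.38, 15 ± 1.91 and 30.1 ± 5.99 FPKM in Media (SD, n = 4 each). The Ndufb7 call ended without Hevin 2 or 3, LPS 2, 3 or 4, Media 1, 2 or 3, or number 2 or 3 (adjusted p 0.0544 to 0.207), without the block (adjusted p = 0.131), with no filter (adjusted p = 0.0522) and with voom on recovered reads (adjusted p = 0.0581). The Ndufc2 call ended without Hevin 3 or 4, LPS 1, 2, 3 or 4, Media 2, 3 or 4, or number 1, 2, 3 or 4 (adjusted p 0.0561 to 0.15), without the block (adjusted p = 0.216), with a pseudocount of 5 (adjusted p = 0.0509), with no filter (adjusted p = 0.0593) and with voom on recovered reads (adjusted p = 0.169). The Ndufb9 call ended without Hevin 1, 2 or 3, LPS 1, 2 or 4, Media 1, 2, 3 or 4, or number 1, 2, 3 or 4 (adjusted p 0.0533 to 0.191), without the block (adjusted p = 0.355), with a pseudocount of 5 (adjusted p = 0.05), with no filter (adjusted p = 0.0548) and with voom on recovered reads (adjusted p = 0.123). Ndufb7 has 1 near-identical pseudogene, and Ndufb9 shares exons with Gm49356 on its own strand.

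Of the remaining 17 accessory subunits 4 were lower, a share near the 22.2% of all genes. Ndufab1, the acyl carrier protein of mitochondria (chr7:122085403-122101886, - strand), had 6.48, 7.51, 9.58 and 7.44 FPKM in Hevin, 4.82, 3.5, 3.93 and 5.45 FPKM in LPS and 7.65, 8.77, 6.25 and 5.18 FPKM in Media. LPS and Media overlap at LPS 4 and Media 4, and LPS lies below all of Hevin. Ndufab1 had a log2 fold change of -0.55 ± 0.17 (adjusted p = 0.0249). The Ndufab1 call ended without LPS 2 or 3, Media 1 or 2, or number 1, 2 or 3 (adjusted p 0.064 to 0.127) and under quantile normalization (adjusted p = 0.0703). Ndufab1 has 2 near-identical pseudogenes. Ndufv3, an accessory subunit of the NADH-oxidising module (chr17:31520115-31531331, + strand), had 7.84, 7.58, 7.81 and 8.1 FPKM in Hevin, 3.86, 5.05, 4.87 and 5.21 FPKM in LPS and 4.95, 6.21, 7.71 and 6.91 FPKM in Media. LPS 2 and LPS 4 lie above Media 1, and LPS lies below all of Hevin. Ndufv3 had a log2 fold change of -0.37 ± 0.10 (adjusted p = 0.0102). The Ndufv3 call ended without number 3 (adjusted p = 0.0764).

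Ndufa13, also known as the cell death regulator GRIM-19, averaged 13.4 ± 2.81 FPKM in Hevin, 9.34 ± 1.1 FPKM in LPS and 11.5 ± 0.887 FPKM in Media (SD, n = 4 each), with a log2 fold change in LPS of -0.28 ± 0.10 (adjusted p = 0.0367). The Ndufa13 call ended without Hevin 3, LPS 2, 3 or 4, Media 1, 2 or 3, or number 1, 2 or 3 (adjusted p 0.0528 to 0.119), without the block (adjusted p = 0.146), under quantile normalization (adjusted p = 0.0612) and with voom on recovered reads (adjusted p = 0.0801). Ndufa6 averaged 20.4 ± 2.35 FPKM in Hevin, 17.6 ± 2.77 FPKM in LPS and 21.4 ± 3.27 FPKM in Media, with a log2 fold change of -0.27 ± 0.09 (adjusted p = 0.0408). The Ndufa6 call ended without Hevin 1 or 3, LPS 1, 3 or 4, Media 2, 3 or 4, or number 1, 3 or 4 (adjusted p 0.0517 to 0.195), without the block (adjusted p = 0.182) and with voom on recovered reads (adjusted p = 0.117). Ndufa2, the highest complex I subunit, averaged 50.2 ± 3.45 FPKM in Hevin, 57.4 ± 7.02 FPKM in LPS and 55.5 ± 7.33 FPKM in Media and did not pass the test in any comparison (adjusted p = 0.434, 0.757 and 0.182 in Hevin against Media, LPS against Media and Hevin against LPS).

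Lower calls occurred both in genes with uncertain reads and in genes without. Of the 24 complex I subunits without a near-identical pseudogene 11 were lower in LPS (45.8%), against 22.2% of all genes. Of the 12 with one 3 were lower (25%), a share near that of all genes. Of the 20 that share no exon with another gene 9 were lower (45%), and of the 16 that do 5 were lower (31.25%). All 14 called subunits kept a negative fold change in each of the 24 alternatives, but many of these could hardly change the sign. The fits without the block or without a Hevin library leave this fold change as it was. Other scalings moved the median of all genes in LPS down, to -0.29 without scaling factors and -0.12 under upper quartile scaling. The kept sign is therefore not separate support.

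**Figure D4:**
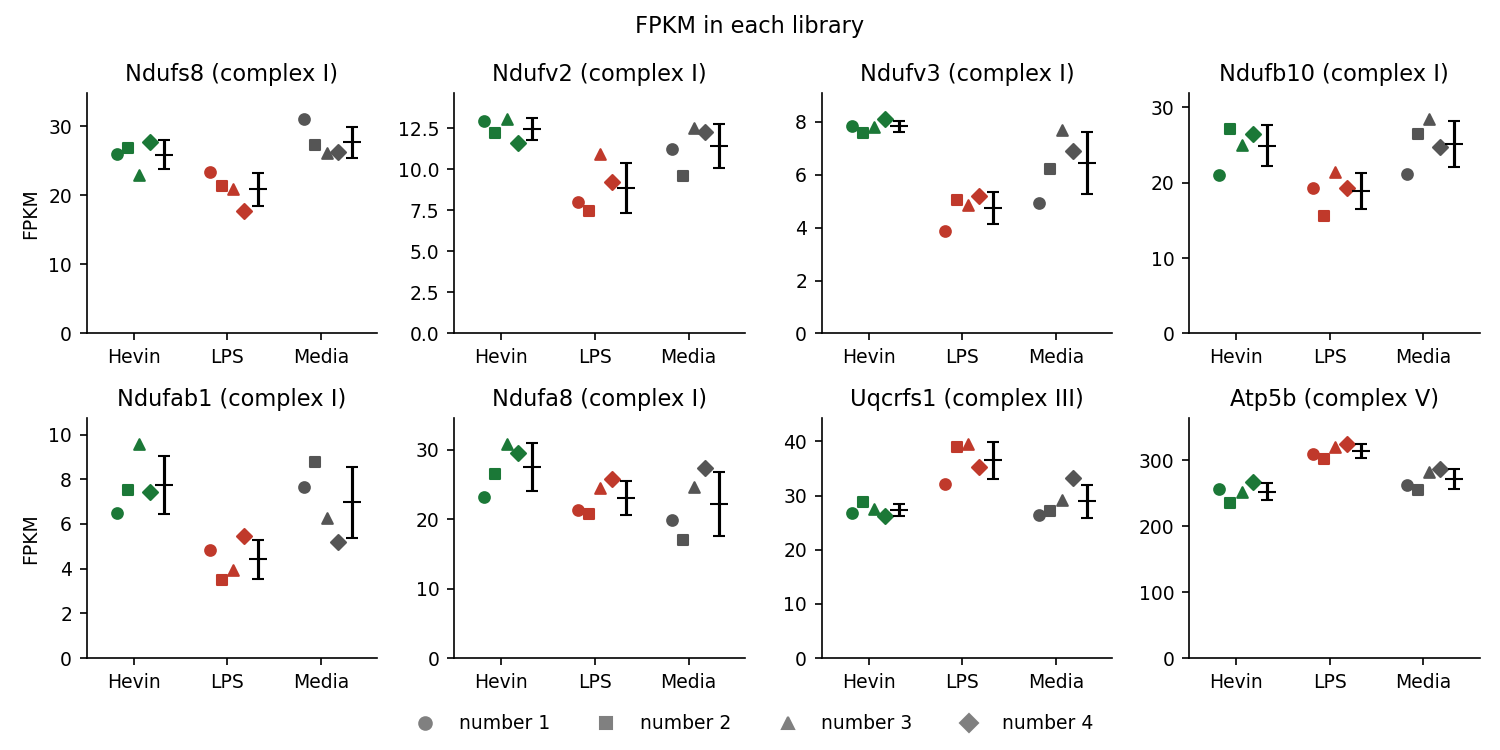
FPKM of 8 subunits in each library, with the replicate number shown by the symbol and mean ± SD (n = 4) as a bar beside the points; axes start at 0. LPS lies below Media in mean for Ndufs8, Ndufv2, Ndufv3, Ndufb10 and Ndufab1, and above it for Uqcrfs1 and Atp5b, of which Atp5b turns to -0.12 on the log2 scale without scaling factors.

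Complex II had no called member in LPS against Media as reported. Of its 4 members 3 were lower under quantile normalization, 1 under upper quartile scaling and 4 without scaling factors. Of all genes 24.3%, 33.4% and 56.3% were lower under these 3 settings. Sdha, the flavoprotein that oxidises succinate, averaged 60.9 ± 1.11 FPKM in Hevin, 57 ± 6.97 FPKM in LPS and 55.3 ± 2.76 FPKM in Media, and Sdhb, its iron-sulfur partner, averaged 36.5 ± 2.53 FPKM in Hevin, 30.9 ± 4.03 FPKM in LPS and 33.1 ± 0.803 FPKM in Media (SD, n = 4 each). The membrane anchors Sdhc and Sdhd averaged 28.6 ± 1.93 and 49.4 ± 3.16 FPKM in LPS, against 29.8 ± 0.844 and 51.2 ± 3.94 FPKM in Media. The 4 log2 differences in LPS lay between -0.10 and 0.04, and that of Sdha, 0.04, changes sign to -0.29 without scaling factors and to -0.22 under quantile normalization.

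In complex III 1 of 8 members was higher in LPS and 0 lower. Uqcrfs1, the Rieske iron-sulfur protein (chr13:30540308-30545362, - strand), had 26.7, 28.8, 27.6 and 26.2 FPKM in Hevin, 32.1, 39, 39.5 and 35.3 FPKM in LPS and 26.4, 27.1, 29.1 and 33.2 FPKM in Media. LPS 1 lies among the Media libraries and the other 3 lie above all of them. Uqcrfs1 had a log2 fold change of 0.33 ± 0.08 (adjusted p = 0.00733) and fell to 0.01 without scaling factors. The Uqcrfs1 call ended without number 3 (adjusted p = 0.0603), without scaling factors (adjusted p = 0.955) and under quantile normalization (adjusted p = 0.122). Uqcrc1 averaged 59.6 ± 7.25 FPKM in Hevin, 64.9 ± 4.97 FPKM in LPS and 62.6 ± 2.96 FPKM in Media, with a difference in LPS of 0.05 ± 0.07 (adjusted p = 0.567) that changes sign to -0.27 without scaling factors and to -0.22 under quantile normalization. Uqcrb and Uqcrh, small subunits with 4 and 2 near-identical pseudogenes, were among the members that varied most within groups, with an SD of 0.468 and 0.423 on the log2(FPKM + 1) scale.

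In complex IV 1 of 13 tested members was lower in LPS and 0 higher. It was Cox6a2, with 1.26, 3.24, 1.72 and 2.74 FPKM in Hevin, 1.33, 3.82, 0.248 and 0.643 FPKM in LPS and 1.6, 4.31, 2.4 and 1.83 FPKM in Media, the member with the largest SD within groups (0.604 on the log2(FPKM + 1) scale), and its exons overlap Itgad on the opposite strand. Cox6a2 had a log2 fold change of -0.63 ± 0.23 (adjusted p = 0.0492). The Cox6a2 call ended without Hevin 1 or 3, LPS 3 or 4, Media 1, 2, 3 or 4, or number 1, 3 or 4 (adjusted p 0.0539 to 0.272), without the block (adjusted p = 0.248), with a pseudocount of 0.1 (adjusted p = 0.0506), with a pseudocount of 5 (adjusted p = 0.059), with no filter (adjusted p = 0.0613), under quantile normalization (adjusted p = 0.0777) and with voom on recovered reads (adjusted p = 0.11). Cox7a2l, which joins complexes III and IV into supercomplexes, averaged 44.9 ± 3.76 FPKM in Hevin, 42.3 ± 6.76 FPKM in LPS and 42.4 ± 5.66 FPKM in Media. Cox8a averaged 55 ± 5.83 FPKM in Hevin, 56.1 ± 15.2 FPKM in LPS and 58 ± 12.1 FPKM in Media. Their log2 differences in LPS were -0.01 ± 0.10 and -0.06 ± 0.14, neither past the test.

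In complex V 1 of 17 members was higher in LPS and 1 lower. Atp5b (chr10:128083273-128090391, + strand) had 256, 236, 251 and 266 FPKM in Hevin, 309, 301, 319 and 324 FPKM in LPS and 262, 255, 281 and 287 FPKM in Media. The LPS libraries lie above all Hevin and Media libraries. Atp5b had a log2 fold change of 0.21 ± 0.05 (adjusted p = 0.00711), but it turned to -0.12 without scaling factors (adjusted p = 0.0556) and to -0.27 under quantile normalization (adjusted p = 0.00335), and it was 0.09 under upper quartile scaling (adjusted p = 0.147), so its direction changed with the scaling. Atp5sl, listed as Dmac2 in GENCODE and known for helping to assemble the membrane arm of complex I (chr7:25619414-25625551, + strand), had 4.41, 4.66, 4.22 and 4.71 FPKM in Hevin, 2.84, 2.46, 2.85 and 2.86 FPKM in LPS and 3.52, 4.32, 3.46 and 3.84 FPKM in Media. The LPS libraries lie below all others, and the log2 fold change was -0.35 ± 0.09 (adjusted p = 0.00879), called in all 24 alternatives. Atp5a1 averaged 155 ± 8.83 FPKM in Hevin, 162 ± 7.59 FPKM in LPS and 151 ± 5.76 FPKM in Media, a difference in LPS of 0.10 ± 0.05 (adjusted p = 0.135) that changes sign to -0.23 without scaling factors and to -0.32 under quantile normalization.

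Within the replicate numbers the complexes differed in how evenly they moved. The median log2 ratio of complex I in LPS to Media was -0.13, -0.28, -0.14 and -0.25 in numbers 1 to 4, against 0.01, -0.02, -0.04 and -0.03 for all genes. For complex III it was 0.05, 0.31, 0.30 and -0.59, and for complex IV 0.05, 0.22, 0.32 and -0.46, so number 4 went the other way there. For complex V it was -0.12, 0.06, 0.14 and -0.27. In Hevin against Media the medians of complex I were 0.08, 0.03, -0.07 and 0.08. Number 2, where neutrophil markers were highest in all 3 groups, was also left out: the complex I median in LPS was then -0.20, against -0.03 for all genes.

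**Figure D5:**
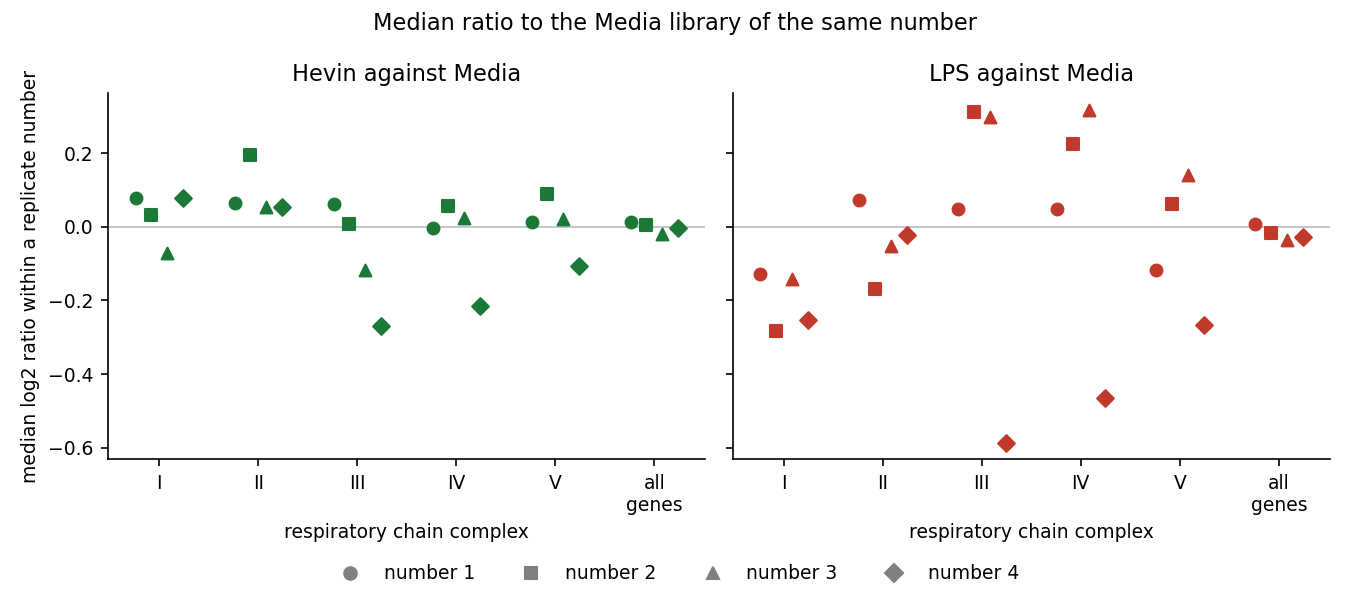
Median log2 ratio of each treated library to the Media library of the same number, by complex and for all genes tested; 1 symbol per number, Hevin left and LPS right. In LPS complex I lies below 0 in all 4 numbers (-0.28 to -0.13), while complexes III and IV lie above 0 in numbers 1 to 3 and below 0 in number 4.

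Hevin against LPS compared both treatments directly. It shares its libraries with the comparisons to Media, so its values are given beside them and not as separate support. Of 78 members 21 were higher in Hevin and 5 lower, against 29.9% and 28.0% of all genes. Complex I held 17 of the 21, or 47.2% of its 36 subunits, and 1 of the 5. Without the block 10 members were higher and 3 lower, against 22.0% and 19.7% of all genes. Complex I held 9 of the 10, or 25% of its 36 subunits, a share near the 22.0% of all genes. With voom 13 complex I subunits were higher (36.1%), against 29.9%. Within all 4 numbers 17 complex I subunits were higher in Hevin, against 32.8% of all genes. Members lower numbered 3 without Hevin 1, Hevin 3, Hevin 4, LPS 3, number 1 or number 3, 10 without LPS 4 and 9 without number 4. The share of all genes lower in these fits is not given here, so these counts cannot be set against all genes. The median log2 fold change of complex I was 0.27, against 0.02 for all genes, and it was 0.22 to 0.28 over the 16 fits that left out a library or a number. The core subunits had 5 of 7 higher, the B and C subunits 4 of 12 and the other accessory ones 8 of 17, with 1 of those lower.

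The 3 largest differences between Hevin and LPS among complex I subunits were in Ndufab1 (0.69 ± 0.17, adjusted p = 0.00536), Ndufv3 (0.63 ± 0.10, adjusted p = 0.000239) and Ndufs7 (0.59 ± 0.15, adjusted p = 0.00643). In Ndufv3 the Hevin libraries, at 7.58 to 8.1 FPKM, lie above all LPS libraries, at 3.86 to 5.21 FPKM. Also higher in Hevin, in all 24 alternatives as were those 3, were Ndufa13 (0.47), Ndufv2 (0.46), Ndufb9 (0.39), Ndufb10 (0.39), Ndufb8 (0.31) and Atp5sl (0.55). Atp5s, known as coupling factor B of ATP synthase, was higher by 0.46 (adjusted p = 0.0401). The Atp5s call ended without Hevin 1, 2, 3 or 4, LPS 1, 2 or 4, or number 1, 2 or 4 (adjusted p 0.0563 to 0.16), without the block (adjusted p = 0.0668) and under quantile normalization (adjusted p = 0.121). Ndufs8 and Ndufv1 were higher by 0.30 and 0.29 (adjusted p = 0.00911 and 0.00391). The Ndufs8 call ended without number 4 (adjusted p = 0.0575). The Ndufv1 call ended without the block (adjusted p = 0.097).

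In complex II Sdhb was higher in Hevin than in LPS (0.24 ± 0.09, adjusted p = 0.0357). The Sdhb call ended without Hevin 2, 3 or 4, LPS 2 or 3, Media 1 or 3, or number 2, 3 or 4 (adjusted p 0.0503 to 0.157) and without the block (adjusted p = 0.0606). The 5 members lower in Hevin than in LPS were Uqcrfs1 (-0.40 ± 0.08, adjusted p = 0.00146), Cox7c (-0.38 ± 0.13, adjusted p = 0.0261), Atp5b (-0.31 ± 0.05, adjusted p = 0.000376), Cox7a2 (-0.28 ± 0.09, adjusted p = 0.0172) and Ndufa1 (-0.27 ± 0.08, adjusted p = 0.0134), of which Atp5b, Cox7a2 and Ndufa1 change sign to 0.04, 0.06 and 0.08 without scaling factors and Atp5b to 0.27 under quantile normalization. The Cox7c call ended without Hevin 1, 3 or 4, LPS 2 or 3, or number 1 or 3 (adjusted p 0.0672 to 0.12), without the block (adjusted p = 0.1), without scaling factors (adjusted p = 0.697), under upper quartile scaling (adjusted p = 0.102) and with voom on recovered reads (adjusted p = 0.0657). The Cox7a2 call ended without Hevin 3 or 4, LPS 3 or 4, or number 3 or 4 (adjusted p 0.0593 to 0.12), without scaling factors (adjusted p = 0.531), under upper quartile scaling (adjusted p = 0.152) and under quantile normalization (adjusted p = 0.146). The Ndufa1 call ended without Hevin 1, or number 1 (adjusted p 0.055 to 0.0848), without the block (adjusted p = 0.182), without scaling factors (adjusted p = 0.373), under upper quartile scaling (adjusted p = 0.115), under quantile normalization (adjusted p = 0.527) and with voom on recovered reads (adjusted p = 0.0515). Without scaling factors the call of Uqcrfs1 ended as well, at -0.05 (adjusted p = 0.586), and so did that of Atp5b (adjusted p = 0.457). Ndufa8, higher in Hevin than in Media, was also higher than in LPS (0.24 ± 0.08, adjusted p = 0.0277). The Ndufa8 call ended without Hevin 2 or 3, LPS 3 or 4, or number 3 (adjusted p 0.0653 to 0.135), without the block (adjusted p = 0.205) and with voom on recovered reads (adjusted p = 0.0627).

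Other genes of the pathway were followed by lists. Of all genes tested, 10.8% were higher and 10.6% lower in Hevin against Media, and 21.5% were higher and 22.2% lower in LPS against Media. Of assembly factors, which build the complexes, 47 of 53 were listed and tested: 1 was higher and 1 lower in Hevin against Media, and 3 were higher and 12 lower in LPS against Media. The mitochondrial ribosome, which makes the subunits encoded by the mitochondrial genome, had 2 of 77 higher and 1 lower in Hevin, and 3 higher and 18 lower in LPS. Enzymes of the citric acid cycle had 0 of 13 higher and 1 lower in Hevin, and 1 higher and 2 lower in LPS. Transcriptional regulators of respiratory genes had 0 of 11 higher and 1 lower in Hevin, and 3 higher and 1 lower in LPS. Carriers and subunits outside the naming rule had 1 of 7 higher and 1 lower in Hevin, and 2 higher and 0 lower in LPS. The lower shares of assembly factors (25.5%) and mitochondrial ribosome (23.4%) in LPS stand beside 22.2% of all genes.

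The gene with the largest change among exchange partners and inhibitors was AA467197 (Nmes1), a paralog of Ndufa4 known to take its place in complex IV in inflamed cells. AA467197 had 4.05, 3.13, 6.26 and 4.21 FPKM in Hevin, 12.6, 21, 34.4 and 39.1 FPKM in LPS and 2.24, 2.26, 4.42 and 4.37 FPKM in Media. Every LPS library lies above every other library. AA467197 had a log2 fold change in LPS of 2.61 ± 0.18 (adjusted p = 1.06e-06), called in all 24 alternatives. Ndufa4 itself averaged 16.5 ± 2.23 FPKM in Hevin, 18 ± 3.04 FPKM in LPS and 15.6 ± 1.2 FPKM in Media (SD, n = 4 each) and did not pass the test in LPS (0.19 ± 0.11, adjusted p = 0.2).

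Ucp2, an inner membrane carrier of the uncoupling protein family, had 362, 369, 299 and 383 FPKM in Hevin, 102, 100.3, 79.7 and 88.2 FPKM in LPS and 167, 169, 134 and 156 FPKM in Media. The groups do not overlap, with Hevin highest and LPS lowest. Its log2 fold changes were 1.17 ± 0.06 in Hevin against Media (adjusted p = 6.35e-07) and -0.75 ± 0.06 in LPS against Media (adjusted p = 2.76e-06), each called in all 24 alternatives. Atpif1, the inhibitor protein of ATP synthase, had 14.5, 18.2, 15.6 and 17.6 FPKM in Hevin, 12.1, 11.2, 10.3 and 12.4 FPKM in LPS and 15.7, 18.8, 18.5 and 14.2 FPKM in Media. It was lower in LPS against Media, with a log2 fold change of -0.50 ± 0.11 (adjusted p = 0.00286), called in all 24 alternatives.

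Cycs, cytochrome c, which carries electrons between complexes III and IV, averaged 7.52 ± 0.507 FPKM in Hevin, 13.1 ± 1.59 FPKM in LPS and 10.1 ± 1.22 FPKM in Media (SD, n = 4 each). Cycs had a log2 fold change of -0.38 ± 0.10 in Hevin against Media (adjusted p = 0.0179) and 0.34 ± 0.10 in LPS against Media (adjusted p = 0.0148). The call in Hevin ended without Hevin 3 or 4, Media 3 or 4, or number 3 or 4 (adjusted p 0.0653 to 0.128) and without the block (adjusted p = 0.0528). The call in LPS ended without LPS 3, Media 1, or number 2 or 3 (adjusted p 0.0523 to 0.0635), without scaling factors (adjusted p = 0.71) and under upper quartile scaling (adjusted p = 0.0669). Gabpb1, a subunit of the ETS-family factor GABP, averaged 5.97 ± 0.297 FPKM in Hevin, 10.3 ± 1.34 FPKM in LPS and 5.9 ± 0.293 FPKM in Media and was higher in LPS (0.71 ± 0.08, adjusted p = 4.34e-05). Dld, the dihydrolipoamide dehydrogenase shared by several mitochondrial enzyme complexes, averaged 44.2 ± 1.93 FPKM in Hevin, 73.6 ± 5.6 FPKM in LPS and 48 ± 1.93 FPKM in Media and was higher in LPS (0.60 ± 0.06, adjusted p = 2.63e-05). Cox18, which inserts a complex IV subunit into the membrane, averaged 4.21 ± 0.632 FPKM in Hevin, 7.07 ± 1.06 FPKM in LPS and 3.61 ± 0.84 FPKM in Media (0.82 ± 0.14 in LPS, adjusted p = 0.00102), and Mrpl52, of the mitochondrial ribosome, averaged 11.4 ± 1.17 FPKM in Hevin, 27.8 ± 3.85 FPKM in LPS and 14.2 ± 2.42 FPKM in Media (0.93 ± 0.10, adjusted p = 3.53e-05). These 4 were called in LPS in all 24 alternatives.

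The remaining genes with the largest called change in their list were as follows. Usmg5, a small protein of the membrane part of ATP synthase, averaged 2.12 ± 0.606 FPKM in Hevin, 4.52 ± 0.488 FPKM in LPS and 2.89 ± 0.417 FPKM in Media and was higher in LPS (0.51 ± 0.13, adjusted p = 0.0104). The Usmg5 call ended without number 3 (adjusted p = 0.0553), without scaling factors (adjusted p = 0.129) and with voom on recovered reads (adjusted p = 0.128). Cmc2, an assembly factor of complex IV, averaged 1.44 ± 0.295 FPKM in Hevin, 0.719 ± 0.373 FPKM in LPS and 0.891 ± 0.402 FPKM in Media and was higher in Hevin (0.38 ± 0.10, adjusted p = 0.0231). The Cmc2 call ended without Hevin 1, 2 or 3, Media 1, 2 or 3, or number 1, 2 or 3 (adjusted p 0.0537 to 0.107), without the block (adjusted p = 0.281) and with voom on recovered reads (adjusted p = 0.136). Pprc1, a coactivator related to PGC-1 alpha, averaged 31.8 ± 4.44 FPKM in Hevin, 42.9 ± 9.8 FPKM in LPS and 39.7 ± 6.5 FPKM in Media and was lower in Hevin (-0.31 ± 0.08, adjusted p = 0.0177). The Pprc1 call ended without Hevin 1 or 2, Media 1, 3 or 4, or number 1 or 4 (adjusted p 0.0506 to 0.0818) and without the block (adjusted p = 0.33).

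Dlst, a component of the 2-oxoglutarate dehydrogenase complex, averaged 53.3 ± 2.25 FPKM in Hevin, 69.6 ± 3.41 FPKM in LPS and 62.8 ± 2.02 FPKM in Media and was lower in Hevin (-0.23 ± 0.06, adjusted p = 0.0158). The Dlst call ended without Hevin 2 or 4, Media 2 or 3, or number 2, 3 or 4 (adjusted p 0.0518 to 0.098) and without the block (adjusted p = 0.0564). Mrps18b, of the small subunit of the mitochondrial ribosome, averaged 17.8 ± 0.828 FPKM in Hevin, 21.6 ± 3.44 FPKM in LPS and 24.3 ± 1.65 FPKM in Media and was lower in Hevin (-0.43 ± 0.09, adjusted p = 0.00876). The Mrps18b call ended without number 3 (adjusted p = 0.0536).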

How the data were processed

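FPKM values of 12 libraries were analysed as the authors deposited them, in 1 table. Per the submitters' processing notes, which give no roles or order, the build was mm10 and the tools were edgeR 3.30.3 in R 4.0.0, featureCounts and Subread 1.6.3, Bowtie2 2.3.5.1, Trimmomatic 0.39 and FastQC 0.11.7; the treatment of reads with several matches and of strand is not given in the sources used here. Whole reads could be recovered from the FPKM steps for 100% of 14541 rows, within 0.1 read.

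Tests used limma 3.58.1 (R 4.3.3), with its trend, on log2(FPKM + 1) for the 11242 genes that reached 1 FPKM in 4 or more libraries, all 12 libraries in 1 fit, with Benjamini-Hochberg adjustment over all genes. The replicate number is a block, since the choice of members asks for pairing by the group label that the libraries of a number share. In 12 pairs of same-numbered libraries the deviations from the group means correlated by 0.230 to 0.784. In pairs of different number they correlated by -0.592 to 0.528, so the 2 ranges overlap. The lowest same-numbered value was LPS 4 with Media 4 (0.230), while LPS 4 with Media 3 had 0.528. There were 24 alternatives: no block, 2 other pseudocounts (0.1 and 5), no filter, 3 other scalings (without scaling factors, upper quartile, quantile), voom on the recovered reads, and 16 fits without 1 library or 1 number. The fit and the recovery were tested on simulated data.

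Members, lists and markers were chosen with earlier results of these data known. Named were, per complex and comparison, the called members with the largest change of each sign, members set by role, and those highest or lowest in mean. After their values were seen, 12 complex I and III members and the Cox7c pseudogenes were added. Of the other pathway genes those with the largest called change per list were named, besides Atpif1 and AA467197. The values of 1 named member are not reported here. Coordinates and exon overlaps come from GENCODE M21 (GRCm38), pseudogene matches from blastn 2.17.0, and promoters from RefSeq. Marker lists for neurons, oligodendrocytes, endothelial cells, lymphocytes and erythroid cells summed to at most 20.5, 11.6, 109, 1.19 and 0.908 FPKM in any library. Tables were made with Python 3.11.15 and pandas 2.3.3.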

Additional observations from a re-analysis of the deposited data

Results flagged for a closer look

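Among 186 groups of 4 libraries, over 62 genes, 11 held 1 library far from the other 3 by Dixon's ratio of gap to range, and chance alone gives about 1 in 20. Values are levels. Atp5sl was lowest in LPS 2 at 2.457 FPKM, Cox4i1 was highest in LPS 1 at 258.6 FPKM and Cox6a1 was highest in Hevin 4 at 93.36 FPKM. Ndufa11 was lowest in LPS 2 at 0.6068 FPKM, Ndufa6 was lowest in Media 1 at 16.46 FPKM and Ndufc1 was lowest in Media 1 at 3.102 FPKM. Ndufs1 was highest in Hevin 2 at 19.05 FPKM, Sdha was lowest in Media 2 at 51.13 FPKM and Sdhd was lowest in LPS 2 at 44.72 FPKM. Cox18 was highest in LPS 3 at 8.641 FPKM and Pprc1 was highest in Hevin 1 at 38.42 FPKM. LPS 2 was the library concerned in 3 of the 11, each time as the lowest. The Ndufc1 and Ndufa6 values lower the Media mean against which LPS was tested.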

How the results depend on the processing

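Without the replicate block, 0 members were higher and 0 lower in Hevin against Media, against 4.27% and 3.1% of all genes. In LPS against Media 6 members were lower (5 in complex I), against 12.6%. In Hevin against LPS 10 members were higher (9 in complex I, or 25% of it) and 3 lower, against 22.0% and 19.7%. Without scaling factors these counts were 2 higher and 0 lower, then 0 higher and 52 lower (29 in complex I), then 51 higher (28 in complex I) and 0 lower, against 56.3% of all genes lower in LPS against Media and 56.5% higher in Hevin against LPS, and the members' median was -0.37 and 0.42 in these comparisons. Under upper quartile scaling LPS against Media had 1 higher and 27 lower (21 in complex I) with a median of -0.18, against 33.4% of all genes lower, and Hevin against LPS had 31 higher and 2 lower, against 39.09% and 20.97%. Under quantile normalization Hevin against Media had 2 higher, LPS against Media 0 higher and 25 lower (13 in complex I) with a median of -0.21, against 24.3% of all genes lower, and Hevin against LPS 30 higher and 2 lower, against 29.7% and 23.6%. Voom gave 0 lower in Hevin against Media, 8 lower in LPS against Media (7 in complex I) and 3 lower in Hevin against LPS. Of all genes 12.15%, 22.4% and 28.1% were lower in these comparisons under voom. The cause of these shifts was not tested. Leaving out a library or a number gave 0 to 2 higher and 0 to 1 lower in Hevin against Media (median -0.028 to 0.055), 1 to 4 higher and 6 to 16 lower in LPS against Media (complex I 4 to 14, median -0.16 to -0.005), and 14 to 23 higher and 3 to 10 lower in Hevin against LPS (complex I 13 to 19, median 0.03 to 0.15). Log2 fold changes changed sign in LPS against Media without scaling factors for Atp5a1 at -0.23, Atp5b at -0.12, Atp5g3 at -0.30, Cox4i1 at -0.24, Ndufa8 at -0.24, Ndufs1 at -0.28, Sdha at -0.29, Uqcrc1 at -0.27, Dlst at -0.18, Gm12338 at -0.060 and Pprc1 at -0.23, and under quantile normalization for Atp5a1 at -0.32, Atp5b at -0.27, Atp5g3 at -0.40, Cox4i1 at -0.37, Sdha at -0.22, Uqcrc1 at -0.22 and Gm12338 at -0.078. In Hevin against LPS they changed sign without scaling factors for Atp5a1 at 0.29, Atp5b at 0.044, Atp5g3 at 0.27, Cox4i1 at 0.27, Cox7a2 at 0.060, Ndufa1 at 0.081, Ndufs1 at 0.33, Sdhc at 0.26, Uqcrc1 at 0.23 and Mrps18b at 0.085, and under quantile normalization for Atp5a1 at 0.47, Atp5b at 0.27, Atp5g3 at 0.40, Cox4i1 at 0.48 and Uqcrc1 at 0.19. These lists of sign changes hold only genes called as reported or in the setting named. Other genes changed sign without a call, such as Ndufa1, Ndufa2, Ndufa4, Cox6b1 and Cox7a2 in LPS against Media. Their lowest log2 fold changes over the 24 alternatives were -0.16, -0.28, -0.12, -0.18 and -0.18, against 0.16, 0.05, 0.19, 0.14 and 0.14 as reported. With 18343996 to 27361665 reads per library, members near 1 FPKM rest on few reads.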
